A study of Mus musculus with 6 samples.

Results

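The maintenance phase of a beige adipocyte culture, from day 2 to day 6, was described across all genes. Its members were the 2 libraries of day 2 and the 2 libraries of day 6, chosen by the day in their titles, 4 of the 6 libraries of the series. The cells were the stromal-vascular fraction of inguinal white fat, the mix of precursor, connective tissue, vascular and immune cells that is left when fat cells float off, taken from 8-week-old male mice and labelled WT (wild type). At day 2 they had spent 2 days, from confluence on, in an induction medium with IBMX (0.5 mM), dexamethasone (5 µM), indomethacin (125 µM), rosiglitazone (1 µM), T3 (1 nM) and insulin (850 nM). At day 6 they had then been kept in a maintenance medium that held only the last 3, their doses unaltered. Day 6 against day 2 thus joins the withdrawal of 3 agents with 4 more days of culture, and these cannot be told apart. The fraction was not sorted, so every library held more than 1 kind of cell. Each day's pair of libraries is described as biological replicates in the series' text and numbered 76 and 77 in the titles. Whether a number stands for a mouse, a pool or a culture is not stated there, and the p-values then reflect only how far these particular libraries lie apart, which may be technical.

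The withdrawn agents act on separate pathways. IBMX blocks the phosphodiesterases, the enzymes that break down cyclic AMP, and so keeps the cyclic AMP signal and its transcription factor CREB active. Dexamethasone is an agonist of the glucocorticoid receptor, and indomethacin blocks the cyclooxygenases that make prostaglandins and can also act on PPAR gamma. Insulin, the thyroid hormone T3 and rosiglitazone, an agonist of PPAR gamma, were present throughout. PPAR gamma is the transcription factor on which fat cells depend for their formation. Beige adipocytes are fat cells of white depots that can make heat through the mitochondrial uncoupling protein Ucp1. In such cultures the precursors divide for a short time after induction, then leave the cell cycle and fill with lipid and mitochondria.

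Of 45808 gene lines, 14459 had counts enough to be tested and 31349 did not. The day 2 libraries held 26292979 and 25057852 counts in genes, and the day 6 libraries 26381822 and 22522221, replicate 76 first here and in every pair of values below. Levels are given as CPM, in which TMM scaling sets the libraries to a common level through the bulk of genes. CPM grows with the length of a transcript, so levels are compared between days and not between genes. Changes are log2 changes, day 6 over day 2, with their standard error (SE), from edgeR's quasi-likelihood fit, and a gene is said to have risen or fallen where its adjusted p was at or under 0.05. The libraries of day 6 lay further apart than those of day 2 (chi-square per degree of freedom over genes 26.3 against 7.53). The scaling bears on every small change. TMM factors were 1.119 and 1.110 at day 2 against 0.849 and 0.891 at day 6, and the mitochondrial genome took 1.21% ± 0.114 (SD, n = 2) of counts at day 2 and 3.51% ± 0.530 (SD, n = 2) at day 6. With library totals as the only scaling the median over all genes moved by -0.36 on the log2 scale, with days 2 and 6 alone in the fit by -0.14, and without the mitochondrial genes by -0.13. In these bulk samples, fewer cells of a type and less RNA per cell cannot be told apart.

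The labelled cell types were checked against their defining markers. The adipocyte markers were present at both days and higher at day 6. Adipoq, the hormone adiponectin, measured 99.3 and 85.1 CPM at day 2 and 2302 and 2031 CPM at day 6. Plin1, the coat protein of lipid droplets, measured 478 and 418 CPM at day 2 and 2031 and 1863 CPM at day 6. Cidec, which fuses lipid droplets, measured 92.6 and 82.9 CPM at day 2 and 5583 and 4972 CPM at day 6. The day 6 libraries lay above the day 2 libraries for each of the 3, as they did for 6798 of the 14459 genes tested. Stromal markers did not vanish. Pdgfra, a receptor of adipose precursors, fell from 365 and 450.5 to 189 and 305 CPM (log2 change -0.72 ± 0.21 SE), while Pdgfrb measured 101 and 121 CPM at day 2 and 106 and 171 CPM at day 6 and did not pass the test. Lymphoid, epithelial and erythroid markers summed to at most 0.402 CPM in any of the 4 libraries, and none of them had counts enough to be tested. Macrophage markers (14 genes) summed to 71.3 and 37.4 CPM at day 2 and to 169.9 and 68.6 CPM at day 6. Of 12 tested, 6 were higher at day 6 and none lower, and replicate 76 held the larger sum on both days. That count ranged from 0 without day 2 replicate 77 to 10 without day 6 replicate 77, and was 2 without day 6 replicate 76, 3 with library totals and 10 with no filter.

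Between day 2 and day 6 the expression of 9501 genes changed, 65.7% of those tested. Of these, 5520 were higher at day 6 (38.2% of genes tested) and 3981 lower (27.5%). With library totals as scaling, 3650 were higher and 6182 lower. With days 2 and 6 alone in the fit, 4488 were higher and 4531 lower, and without the mitochondrial genes 4720 and 4763. The split between the directions thus rests on the scaling and on what enters the fit. A stricter test asked for a change beyond 2-fold, and 2828 genes passed it (19.6%), 1940 higher (13.4%) and 888 lower (6.14%). The median log2 change over all genes was 0.12, with quartiles of -0.44 and 0.79. These shares are the background for every list below.

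**Figure D1:**
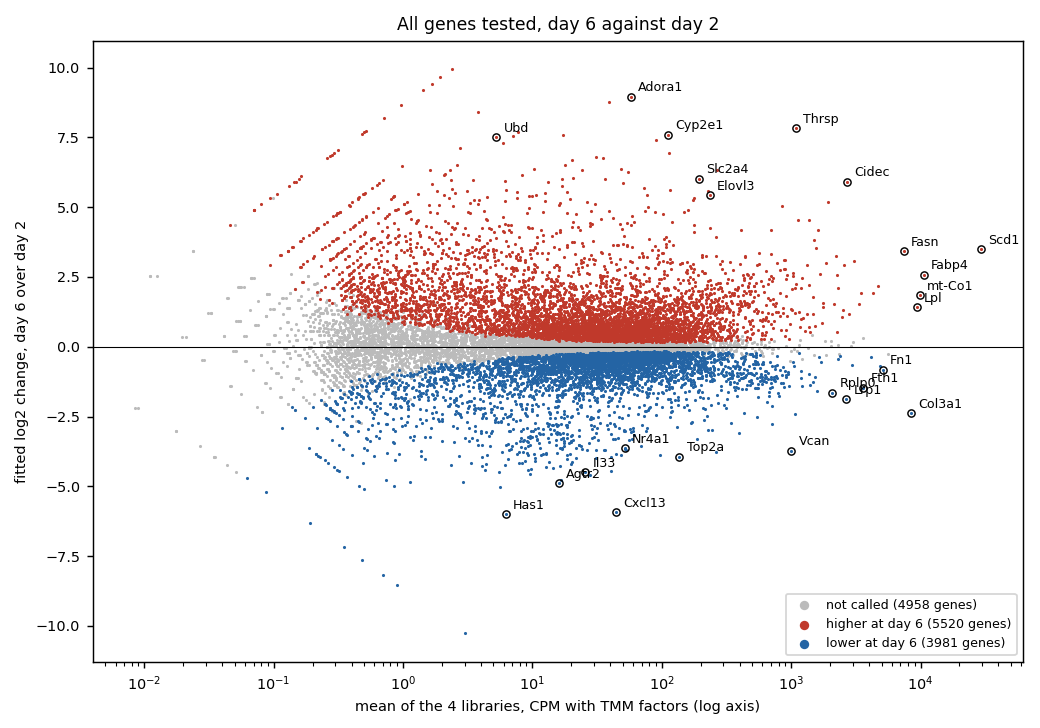
Every gene tested, with its mean level over the 4 libraries in CPM on a log axis and its fitted log2 change of day 6 over day 2. Red points (5520 genes) were higher and blue points (3981 genes) lower at day 6, and grey points were not called. Adora1, Thrsp and Cidec lie far up, Cxcl13 and Has1 far down, and Scd1 lies at the far right.

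The largest rises by fold were mostly in genes with low levels at day 2. Adora1 (chr1:134199223-134235431, minus strand), the adenosine receptor that restrains lipolysis in fat cells, measured 0.17 and 0.288 CPM at day 2 and 129 and 101 CPM at day 6. That was a 496-fold rise (log2 change 8.95 ± 0.27 SE, adjusted p = 2.47e-07). Thrsp, which answers to thyroid hormone and promotes fatty acid synthesis, measured 9.21 and 9.96 CPM at day 2 and 2760 and 1572 CPM at day 6, a 226-fold rise (log2 change 7.82 ± 0.30 SE). Cyp2e1, a cytochrome P450, rose 194-fold, from 0.918 and 1.37 to 266 and 176 CPM. Tmem182, a membrane protein, rose 433-fold from a day 2 mean of 0.171 CPM, with log2 changes of 7.96 to 10.89 across settings. Aldh3b2, an aldehyde dehydrogenase, rose 172-fold. Slc7a10, an amino acid transporter of adipocytes, rose 189-fold, to 16.5 and 11.7 CPM. Orm1, an acute-phase protein, rose 193-fold, and Lctl, of the klotho family, 205-fold. Bmp3, a ligand of the BMP family, rose from 0.102 and 0.036 to 12.2 and 11.5 CPM. Day 2 means of Slc7a10, Lctl and Bmp3 were 0.0700, 0.0690 and 0.0690 CPM. These lay below the level of 3 counts in the day 2 libraries (0.102 and 0.108 CPM), so their folds rest on few counts. Ubd, a ubiquitin-like protein, had 3 counts at day 2 and 443 at day 6, which makes the ratio 199.1 (95% counting interval 67.7 to 969.2). In each of these 10 genes the lowest day 6 library lay above the highest day 2 library, as the choice of genes required. Of Adora1's exon bases, 20.1% lie in exons of other genes, and 24.2% of the 50-base stretches of Aldh3b2 occur in other genes.

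The largest falls by fold included genes of secreted proteins and of matrix synthesis. Has1 (chr17:17843323-17855205, minus strand), a hyaluronan synthase, measured 10.6 and 13.99 CPM at day 2 and 0.179 and 0.2 CPM at day 6, a 63.6-fold fall (log2 change -5.99 ± 0.30 SE, adjusted p = 1.11e-06). Cxcl13 (chr5:95956951-95961068, plus strand), a chemokine that attracts B cells, measured 78.02 and 95.7 CPM at day 2 and 1.07 and 1.8 CPM at day 6, a 61.1-fold fall. At day 0 Cxcl13 had measured 0.265 and 0.247 CPM, so it was high at day 2 alone. Tnfsf11, the ligand RANKL, fell 32.6-fold, and Agtr2, the type 2 angiotensin receptor, 29.7-fold. Saa3, an acute-phase protein, fell 24.2-fold, from 45.5 and 62.01 to 2.19 and 2.24 CPM. Tnfaip6, which crosslinks hyaluronan, fell 23.5-fold. The alarmin Il33 measured 34.98 and 63.2 CPM at day 2 and 0.938 and 3.54 CPM at day 6, with the day 6 libraries far apart from each other and still no overlap between days. Alpl, an alkaline phosphatase, fell 21.7-fold, and Neil3, a DNA repair glycosylase of dividing cells, 22.4-fold. Prl2c2 fell too, but 83.3% of its 50-base stretches occur in other genes, so its counts cannot be assigned to it with certainty.

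In CPM the largest rise was that of Scd1 (chr19:44394455-44407879, minus strand), the desaturase that makes oleic from stearic acid. It measured 4660 and 4921 CPM at day 2 and 62043 and 45333 CPM at day 6, and so took 0.534% ± 0.0174 (SD, n = 2) of counts at day 2 and 4.65% ± 0.868 (SD, n = 2) at day 6. Fabp4, the fatty acid carrier of adipocytes, followed with 3108 and 2932 CPM at day 2 and 20320 and 15950 CPM at day 6. Fatty acid synthase, Fasn, measured 1237 and 1281 CPM at day 2 and 14466 and 12707 CPM at day 6. Lpl, the lipase that frees fatty acids from lipoproteins, measured 5190 and 4943 CPM at day 2 and 14467 and 12680 CPM at day 6. Cidec, mt-Co1, mt-Nd1 and Acsl1, an enzyme that activates fatty acids, completed the 8 largest. The largest fall in CPM was that of Col3a1 (chr1:45311538-45349706, plus strand), the chain of collagen III, with 13797 and 14690 CPM at day 2 and 2170 and 3270 CPM at day 6. Fth1, the heavy chain of ferritin, fell from 5002 and 5578 to 1806 and 2029 CPM, and Lrp1, an endocytic receptor, from 3908 and 4487 to 960.1 and 1330 CPM. Fn1, fibronectin, measured 6057 and 6944 CPM at day 2 and 2871 and 4472 CPM at day 6 (adjusted p = 0.00897, and 0.0684 without day 2 replicate 77). Vcan, the proteoglycan versican, fell from 1833 and 1905 to 120 and 162 CPM and Fstl1, a secreted glycoprotein, from 2273 and 2493 to 622 and 968 CPM. Eef1a1 and Rplp0, both of the translation machinery, fell as well, with 40.4% and 33.1% of their 50-base stretches shared with other genes.

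**Figure D2:**
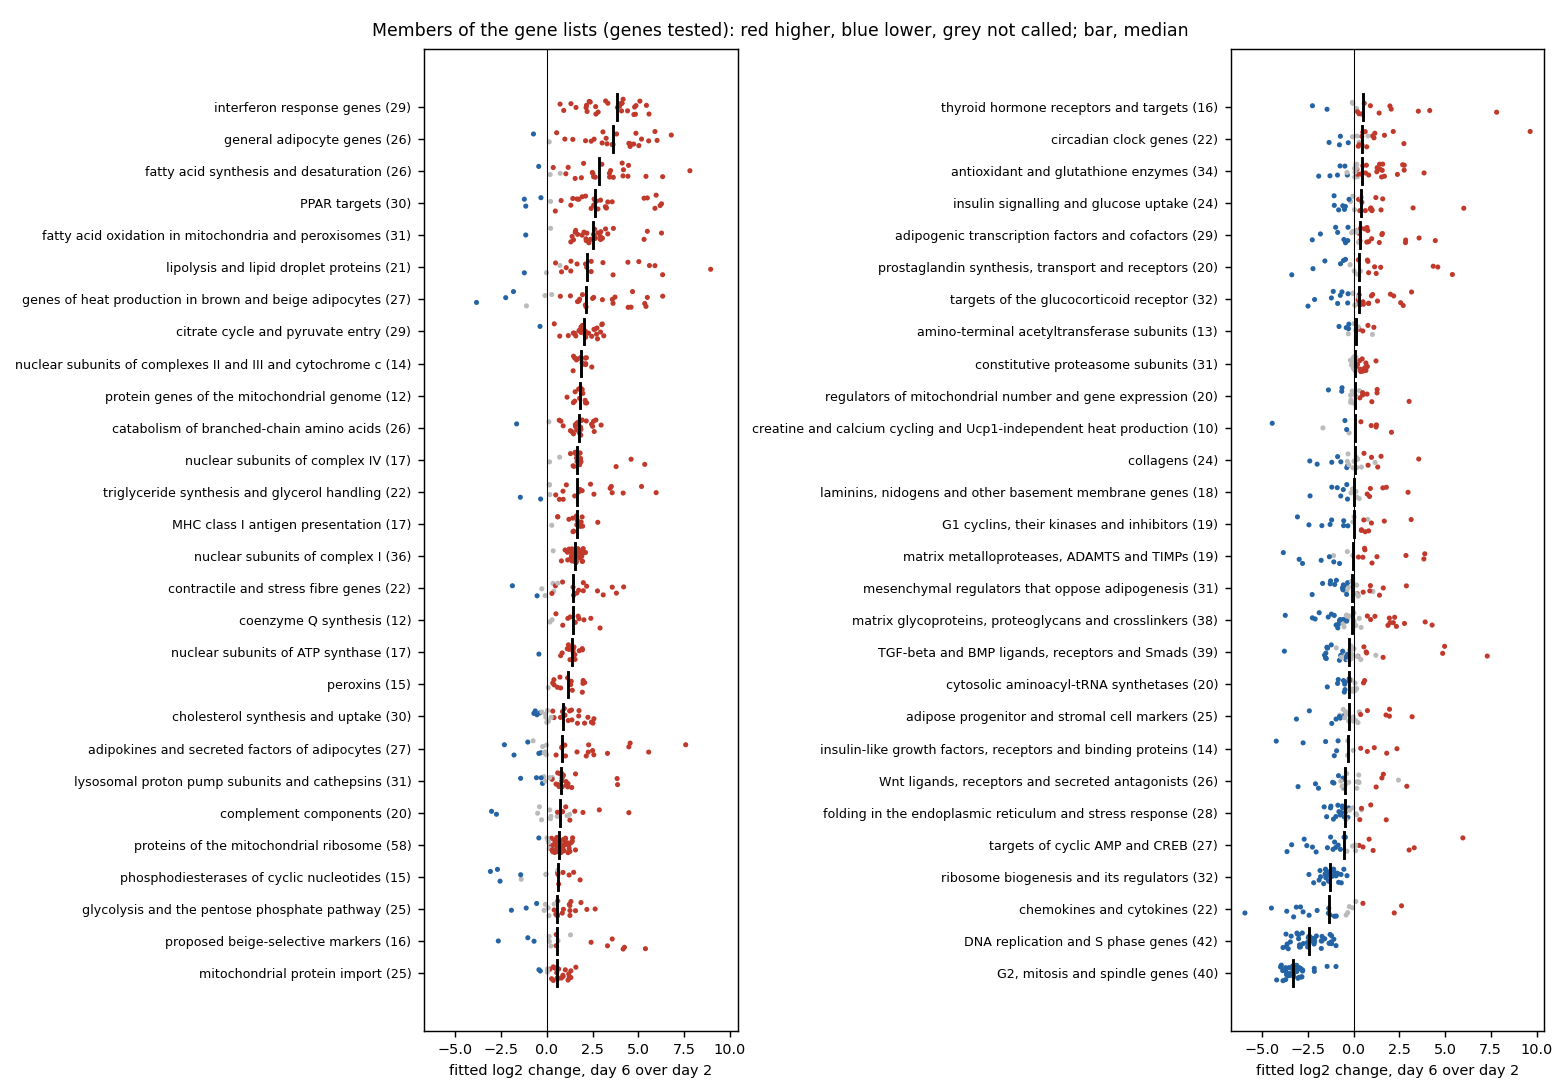
The fitted log2 change of day 6 over day 2 for each tested member (point) of 56 gene lists, ordered by their median (bar), with the number tested in brackets. Red members were higher and blue lower at day 6. The lists of mitosis and S phase lie wholly to the left and those of the interferon response and complexes II and III wholly to the right, while collagens and matrix lie on both sides.

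The genes that cyclic AMP drives through CREB bear on the withdrawal of IBMX. CREB binds the palindrome TGACGTCA or its shorter core, TGACG. Promoters were taken as the 300 bases from 250 before to 50 after the RefSeq start (build GRCm38.p6), and both strands were searched. The core lay in 17 of 23 promoters of the list (73.9%), against 34.9% of the 10396 tested genes with a promoter, and the palindrome, which holds the core on both strands, in 2, those of Dusp1 and Dio2, against 3.67%. The 130 bases before the start are shown for 5 of these genes, 3 that fell and 2 that rose, chosen because they hold the core there, with each core in capitals as TGACG or, on the other strand, CGTCA.
Nr4a1 (chr15:101266716-101266845, plus strand): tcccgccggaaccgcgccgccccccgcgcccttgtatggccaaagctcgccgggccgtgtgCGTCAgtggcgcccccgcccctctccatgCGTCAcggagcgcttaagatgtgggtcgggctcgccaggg
Junb (chr8:84978749-84978878, minus strand): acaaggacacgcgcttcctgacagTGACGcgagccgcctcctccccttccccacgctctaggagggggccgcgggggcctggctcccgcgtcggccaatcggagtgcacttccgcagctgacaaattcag
Dio2 (chr12:90739039-90739168, minus strand): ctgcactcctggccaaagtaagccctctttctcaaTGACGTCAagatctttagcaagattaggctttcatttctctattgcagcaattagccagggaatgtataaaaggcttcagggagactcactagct
Pck1 (chr2:173152943-173153072, plus strand): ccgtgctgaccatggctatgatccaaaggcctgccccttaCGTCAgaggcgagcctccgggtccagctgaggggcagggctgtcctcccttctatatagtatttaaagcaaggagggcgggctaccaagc
Ppargc1a (chr5:51567726-51567855, minus strand): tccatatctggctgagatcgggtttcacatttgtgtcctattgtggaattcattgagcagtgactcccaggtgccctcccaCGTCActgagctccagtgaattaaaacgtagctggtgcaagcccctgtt
Genes of both directions carry the letters, and the shared capitals of Dio2 form the whole palindrome. A match describes the sequence and is not a binding site.

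Of 27 tested targets of cyclic AMP and CREB, 15 were lower at day 6 and 7 higher, with a median log2 change of -0.52 (0.12 over all genes). Nr4a1, a nuclear receptor induced within minutes of a cyclic AMP signal, measured 91.5 and 100.4 CPM at day 2 and 6.79 and 8.73 CPM at day 6. That was a 12.4-fold fall (log2 change -3.63 ± 0.12 SE, adjusted p = 2.47e-07), to below its day 0 level of 46.9 and 50.6 CPM. Its relative Nr4a3 fell from 5.41 and 6.47 to 0.536 and 0.598 CPM, whereas Nr4a2 measured 3.604 and 4.46 CPM at day 2 and 2.95 and 3.34 CPM at day 6 and did not pass the test. Junb, a subunit of the AP-1 factor, measured 141 and 147 CPM at day 2 and 30.2 and 39.9 CPM at day 6 (log2 change -2.04 ± 0.12 SE), and the early growth response factor Egr1 fell from 75.4 and 79.2 to 42.2 and 44.3 CPM. Dio2, the deiodinase that makes active T3 within brown fat, measured 13.2 and 14.3 CPM at day 2 and 3.84 and 1.895 CPM at day 6 (log2 change -2.24 ± 0.27 SE, adjusted p = 0.000116). Not every target followed. Crem, a CREB relative that cyclic AMP induces, measured 11.8 and 14.03 CPM at day 2 and 13.05 and 11.7 CPM at day 6 (adjusted p = 0.73, and 0.0191 as a fall with library totals). Fos measured 10.2 and 12.8 CPM at day 2 and 12.3 and 12.6 CPM at day 6 and did not pass the test. Pck1, which makes the glycerol backbone of triglycerides, had 6 and 0 counts at day 2 and 178 and 116 at day 6, and passed the test (adjusted p = 3.33e-05). With its day 2 counts in 1 library, its fitted log2 change was 5.97 but 10.43 without day 2 replicate 76 and 5.04 without day 2 replicate 77. Ppargc1a rose from 5.201 and 5.43 to 47.7 and 39.6 CPM, and Fgf21, a hormone, from 0.374 and 0.144 to 3.04 and 2.24 CPM.

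The phosphodiesterases themselves, the family that holds the targets of IBMX, divided. Of 15 tested, 4 were lower (26.7%) and 7 higher (46.7%) at day 6. Over all genes tested the shares were 27.5% and 38.2%, so this split lay near the background. Those that fell were Pde4b, Pde4d, Pde7b and Pde10a. Pde4d measured 77.2 and 92.7 CPM at day 2 and 16.5 and 12.3 CPM at day 6, a 5.87-fold fall (adjusted p = 2.04e-06). Pde4b measured 31.7 and 34.8 CPM at day 2 and 5.58 and 4.64 CPM at day 6, and Pde7b 27.3 and 34.8 CPM at day 2 and 4.29 and 2.99 CPM at day 6. The day 6 libraries of all 3 lay below their day 0 libraries (24.2 and 22.04, 26.9 and 23.5 and 15.8 and 15.4 CPM in that order). Pde3b, the form through which insulin restrains lipolysis, rose from 347 and 307 to 846 and 678 CPM (log2 change 1.22 ± 0.12 SE). Pde1b, Pde7a and Pde2a rose as well, although 62.8% of Pde2a's 50-base stretches occur in other genes.

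Targets of the glucocorticoid receptor did not move together after dexamethasone was withdrawn. Of 32 tested, 18 were higher (56.2%) and 9 lower (28.1%) at day 6, with a median log2 change of 0.31. Over all genes tested the shares were 38.2% and 27.5%, so the share lower was near the background. With library totals as scaling 10 were higher and 10 lower, and the median was -0.05. The receptor gene itself, Nr3c1, rose from 98.4 and 97.1 to 173 and 167 CPM. Fkbp5, a chaperone partner of the receptor, measured 173 and 169.6 CPM at day 2 and 287 and 211 CPM at day 6 (log2 change 0.54 ± 0.13 SE), against 24.5 and 26.7 CPM at day 0. Zbtb16, a transcription factor, measured 79.4 and 79.3 CPM at day 2 and 117 and 108 CPM at day 6 (log2 change 0.50 ± 0.07 SE), against 0.331 and 0.288 CPM at day 0. Both rises were lost with library totals as scaling, at adjusted p = 0.223 for Fkbp5 and 0.0831 for Zbtb16. Tsc22d3, the leucine zipper protein GILZ, measured 83.2 and 85.1 CPM at day 2 and 223 and 194 CPM at day 6 (log2 change 1.31 ± 0.08 SE). Per1 measured 70.2 and 75.2 CPM at day 2 and 95.1 and 84.98 CPM at day 6 and passed the test (adjusted p = 0.0108). That call was lost by DESeq2 (adjusted p = 0.0914), with days 2 and 6 alone (0.116) and without mitochondrial genes (0.0898). With library totals the direction of Per1 turned. Others fell. The metallothionein Mt2 measured 1128 and 1172 CPM at day 2 and 308 and 218 CPM at day 6 (log2 change -2.13 ± 0.17 SE), and Mt1 fell from 1031 and 1074 to 588 and 390.3 CPM. Of Mt2's exon bases, 73.5% lie in exons of other genes. Ddit4, an inhibitor of mTOR signalling, measured 385 and 374 CPM at day 2 and 70.2 and 65.1 CPM at day 6, a 5.61-fold fall. Errfi1, a brake on the EGF receptor, fell from 349 and 362 to 162 and 146 CPM. The largest rises in the list were those of Tgm2, a transglutaminase, Pdk4, a kinase that closes pyruvate dehydrogenase, Lpin1, a phosphatase of triglyceride synthesis, and Glul, glutamine synthetase. Pdk4 measured 26.1 and 28.7 CPM at day 2 and 203 and 157 CPM at day 6, and Glul 513 and 475 CPM at day 2 and 2505 and 2021 CPM at day 6. Pdk4 and Lpin1 are also known targets of PPARs.

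Genes of prostaglandin synthesis and reception, the pathway of indomethacin, changed in both directions. Of 20 tested, 10 were higher (50%) and 6 lower (30%) at day 6, against 38.2% and 27.5% of all genes tested. Their median of 0.32 became -0.03 with library totals. Ptgs2, the inducible cyclooxygenase, measured 5.61 and 7.41 CPM at day 2 and 0.983 and 1.85 CPM at day 6 (log2 change -2.22 ± 0.27 SE), while the constitutive form Ptgs1 rose from 4.59 and 4.96 to 8.94 and 12.4 CPM. Ptgfr, the receptor of prostaglandin F2 alpha, which opposes adipogenesis, measured 30.4 and 33.8 CPM at day 2 and 2.77 and 3.44 CPM at day 6, a 10.4-fold fall. Tbxa2r, the thromboxane receptor, rose from 0.51 and 0.683 to 9.61 and 15.01 CPM, still below its 31.2 and 30.3 CPM at day 0. Hpgd, which inactivates prostaglandins, measured 0.374 and 0.54 CPM at day 2 and 23.7 and 15.01 CPM at day 6 (log2 change 5.40 ± 0.33 SE). Hpgds, a prostaglandin D synthase, had 3 counts at day 2 and 59 at day 6, which makes the ratio 26.5 (95% counting interval 8.64 to 132.3). The uptake transporter Slco2a1 fell from 76.7 and 71.8 to 19.7 and 30.7 CPM. Ptgds had 1 count at day 2 and 5 at day 6 and was not tested.

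**Figure D3:**
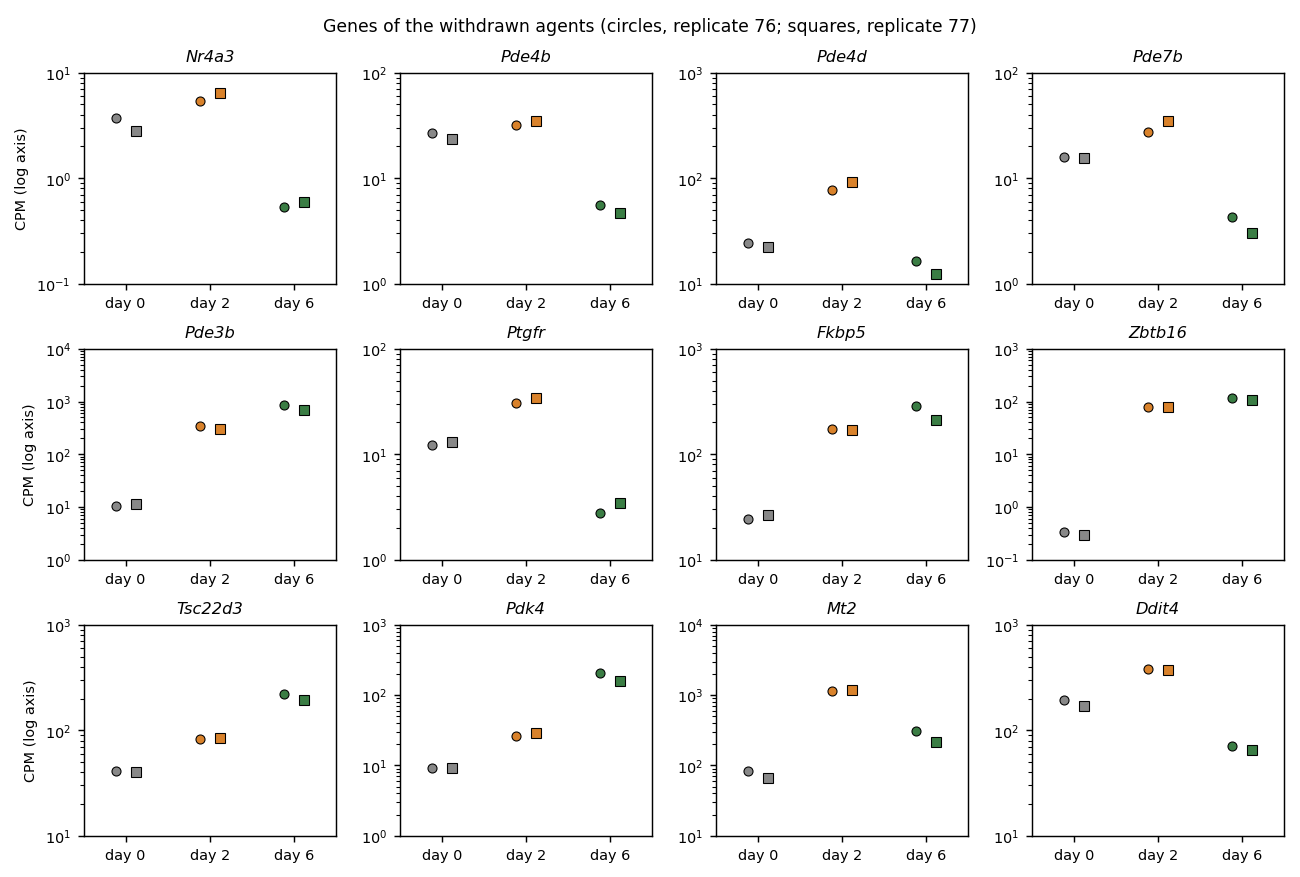
Levels in CPM on log axes in the libraries of day 0 (grey), day 2 (orange) and day 6 (green) of 12 genes tied to the withdrawn agents, circles for replicate 76 and squares for replicate 77. Nr4a3, Pde4b, Pde4d, Pde7b and Ptgfr stood lower at day 6 than at day 2, as did Mt2 and Ddit4. Fkbp5, Zbtb16 and Tsc22d3 stayed above their day 0 levels at day 6.

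Fat cell genes rose further after the switch of medium. Of 26 tested genes of the general adipocyte list, 24 were higher and 1 was lower at day 6, 22 of them beyond 2-fold, with a median log2 change of 3.60. Slc2a4, the insulin-responsive glucose transporter GLUT4, measured 5.95 and 5.83 CPM at day 2 and 445 and 322 CPM at day 6, a 65.1-fold rise (log2 change 6.02 ± 0.20 SE, adjusted p = 2.47e-07). Tshr, the thyrotropin receptor, rose 112-fold, from 0.578 and 0.504 to 57.8 and 64.2 CPM. The hormone Retn, resistin, measured 9.04 and 9.75 CPM at day 2 and 510 and 380.3 CPM at day 6. Cfd, the protease adipsin, measured 7.51 and 13.02 CPM at day 2 and 247 and 211 CPM at day 6, against 18.6 and 29.2 CPM at day 0. The exceptions were Nnat, which fell from 3.74 and 2.88 to 2.19 and 1.8 CPM (adjusted p = 0.0245, 0.159 without day 2 replicate 76 and 0.0894 without day 6 replicate 77), and Dgat2, a final enzyme of triglyceride synthesis, at 285 and 250.3 CPM at day 2 and 324 and 263 CPM at day 6. Lep, the hormone leptin, had 0 counts at day 2 and 6 at day 6 and was not tested.

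The transcription factors of adipogenesis divided. Of 29 tested, 16 were higher (55.2%) and 8 lower (27.6%), against 38.2% and 27.5% of all genes tested. Their median of 0.35 became -0.01 with library totals. Pparg measured 112 and 100.2 CPM at day 2 and 203 and 173 CPM at day 6, a 1.77-fold rise, and Cebpa 1291 and 1005 CPM at day 2 and 1956 and 1874 CPM at day 6, a 1.67-fold rise that was lost with library totals (adjusted p = 0.0548). Cebpb and Cebpd, which act early and switch on the other 2, fell, Cebpb from 125 and 109 to 55.3 and 64.2 CPM and Cebpd from 75.6 and 82.2 to 39.4 and 47.2 CPM. Klf5 and Egr2, further early factors, fell 4.76- and 3.502-fold. The 4 largest rises were those of Mlxipl, Ppara, Zfp467 and Nr1h3. Mlxipl, the glucose-sensing factor ChREBP, measured 5.64 and 4.93 CPM at day 2 and 134 and 100.5 CPM at day 6 (log2 change 4.47 ± 0.18 SE). Ppara rose from 2.52 and 3.201 to 38.6 and 29.7 CPM, Zfp467, a zinc finger protein, from 2.45 and 2.88 to 18.4 and 19.9 CPM, and Nr1h3, the oxysterol receptor LXR alpha, from 23.9 and 19.6 to 165 and 147 CPM. Of 30 tested PPAR targets, 26 were higher and 3 lower, with a median of 2.62. Among the 3 that fell were Hilpda, an inhibitor of lipolysis under low oxygen, and Angptl4, an inhibitor of Lpl. Angptl4 changed least of the 3, from 609 and 558 to 501 and 435 CPM (adjusted p = 0.016, and 0.115 without day 2 replicate 76).

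Fatty acid synthesis rose as a pathway at the transcript level, with 23 of 26 tested genes higher and 1 lower and a median of 2.83. Along the route from citrate to desaturated fatty acids, Acly, which splits citrate, measured 642 and 680.3 CPM at day 2 and 4558 and 3241 CPM at day 6. Acacb, the carboxylase whose product restrains fatty acid oxidation, measured 6.39 and 6.62 CPM at day 2 and 569 and 477 CPM at day 6 (log2 change 6.33 ± 0.13 SE). Me1, a source of NADPH, rose 17.9-fold, with 28.3% of its 50-base stretches shared with other genes. Elovl3, an elongase of brown and beige fat, measured 9.69 and 11.8 CPM at day 2 and 447 and 471 CPM at day 6, a 42.8-fold rise. Elovl6, which elongates palmitic acid, was the member that fell, from 73.8 and 83.1 to 55.9 and 59.6 CPM. For triglycerides, 17 of 22 tested genes were higher and 2 lower. Gpd1, which makes glycerol phosphate, measured 107 and 101 CPM at day 2 and 3899 and 3620 CPM at day 6, and Slc27a1, a fatty acid transporter, 78.6 and 68.8 CPM at day 2 and 1388 and 1271 CPM at day 6. Acsl4, which prefers arachidonic acid, fell from 159 and 195 to 65.9 and 64.04 CPM. For lipolysis and lipid droplets, 18 of 21 were higher and 1 lower. The lipases Pnpla2 and Lipe measured 694 and 599 and 219 and 202 CPM at day 2 and 5687 and 5160 and 1205 and 1062 CPM at day 6. Plin5, which ties lipid droplets to mitochondria, rose 80.3-fold, and the carboxylesterase Ces1d 48.8-fold.

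Secreted factors divided. Of 27 tested adipokines, 16 were higher and 5 lower at day 6, with 8 lower with library totals and 3 without day 2 replicate 76. Apln, the hormone apelin, fell from 121 and 125 to 31.5 and 17.8 CPM, and Gdf15, a stress hormone, from 26.6 and 25.6 to 6.43 and 8.68 CPM. Vegfa fell from 384 and 344 to 296 and 243 CPM (adjusted p = 0.00877, and 0.0732 without day 2 replicate 76). Among 20 complement genes 9 were higher and 2 lower, or 4 lower with library totals. C7, of the membrane attack complex, was among those that fell, from 22.7 and 24.2 to 3.57 and 3.39 CPM. C1qb and C1qc, made by macrophages, were among those that rose, and in each the replicate 76 library of day 6 lay well above that of replicate 77 (16.1 and 5.34 CPM for C1qb and 14.9 and 5.49 CPM for C1qc). The call of C1qb was lost with library totals (adjusted p = 0.068), by DESeq2 (0.103), with days 2 and 6 alone (0.0573), without day 2 replicate 77 (0.157) and without day 6 replicate 76 (0.265, with a log2 change of 0.51), and that of C1qc without day 2 replicate 77 (0.0612). In insulin signalling, 13 of 24 were higher and 7 lower, and 10 and 10 with library totals. Akt2, the kinase form of insulin's metabolic action, rose from 236 and 221 to 694 and 602 CPM, while Akt1 fell from 272 and 258 to 163 and 190.1 CPM. Igf1r fell from 40.6 and 45.4 to 16.4 and 25.2 CPM, and the basal glucose transporter Slc2a1 from 95.1 and 98.1 to 52.7 and 39.7 CPM.

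Genes of heat production rose for the most part, and Ucp1 was lower. Of 27 tested, 21 were higher and 3 lower at day 6, with a median of 2.15. Ppargc1a (chr5:51454250-51567726, minus strand), the coactivator PGC-1 alpha that the series' title names, measured 5.201 and 5.43 CPM at day 2 and 47.7 and 39.6 CPM at day 6. That was an 8.21-fold rise (log2 change 3.04 ± 0.13 SE, adjusted p = 5.49e-07), from 0.894 and 0.7 CPM at day 0. Its relative Ppargc1b measured 31.2 and 24.9 CPM at day 2 and 46.8 and 47.03 CPM at day 6. Cox7a1, a muscle and brown fat subunit of cytochrome oxidase, measured 3.47 and 3.17 CPM at day 2 and 97.5 and 64.04 CPM at day 6 (log2 change 4.60 ± 0.23 SE). Cox8b, a further such subunit, measured 0.136 and 0.288 CPM at day 2 and 13.1 and 4.29 CPM at day 6, with replicate 76 well above replicate 77 at day 6. The beta 3 adrenergic receptor Adrb3 measured 15.4 and 11.3 CPM at day 2 and 169 and 159.8 CPM at day 6, a 12.3-fold rise. Kcnk3, a potassium channel that restrains thermogenesis, measured 4.69 and 4.06 CPM at day 2 and 122 and 104 CPM at day 6, and Clstn3 2.48 and 2.45 CPM at day 2 and 58.03 and 49.4 CPM at day 6. Cpt1b, the muscle form of the mitochondrial fatty acid importer, rose from 0.034 and 0.18 to 5.63 and 4.24 CPM, with 78.6% of its 50-base stretches shared with other genes.

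Ucp1 was rare throughout. It had 13 and 10 counts at day 2, 1 and 0 at day 6, and 0 in both libraries of day 0. The ratio of day 2 to day 6 was 17.1, with a 95% counting interval of 2.77 to 702.7 (edgeR adjusted p = 0.00818, 0.0739 by DESeq2 and 0.0510 without day 6 replicate 77). Cidea, a lipid droplet protein and the usual companion of Ucp1 in brown fat, had 0 counts at day 2 and 21 and 6 at day 6. That was at least 5.90-fold higher against a floor of 3 counts per library, without a test. Dio2 and Lhx8, a brown fat factor, were the other 2 that fell, Lhx8 from 11.5 and 8.42 to 2.41 and 3.24 CPM. The determinants of the beige fate did not pass the test, with Prdm16 at 9.25 and 7.77 CPM at day 2 and 11.2 and 9.33 CPM at day 6 and Ebf2 at 52.3 and 41.7 CPM at day 2 and 47.4 and 40.3 CPM at day 6. Of 16 tested proposed beige markers, 8 were higher and 3 lower. P2rx5, a purinergic channel, measured 0.374 and 0.504 CPM at day 2 and 22.4 and 14.6 CPM at day 6, and Slc36a2, an amino acid transporter, 23.6 and 23.7 CPM at day 2 and 497 and 400.1 CPM at day 6. Cited1 fell from 2.62 and 4.24 to 0.536 and 0.549 CPM, while Tbx1 (2.24 and 2.05 CPM at day 2 and 2.77 and 2.24 CPM at day 6) and Tmem26 (0.34 and 0.216 CPM at day 2 and 0.223 and 0.399 CPM at day 6) did not pass the test. Of 10 tested genes of heat production without Ucp1, 5 were higher and 3 lower, or 3 and 3 with library totals, where the median of 0.08 became -0.28. Ckb, the creatine kinase of the creatine cycle, rose from 7.72 and 7.48 to 17.4 and 18.8 CPM, and Alpl, described above, fell.

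**Figure D4:**
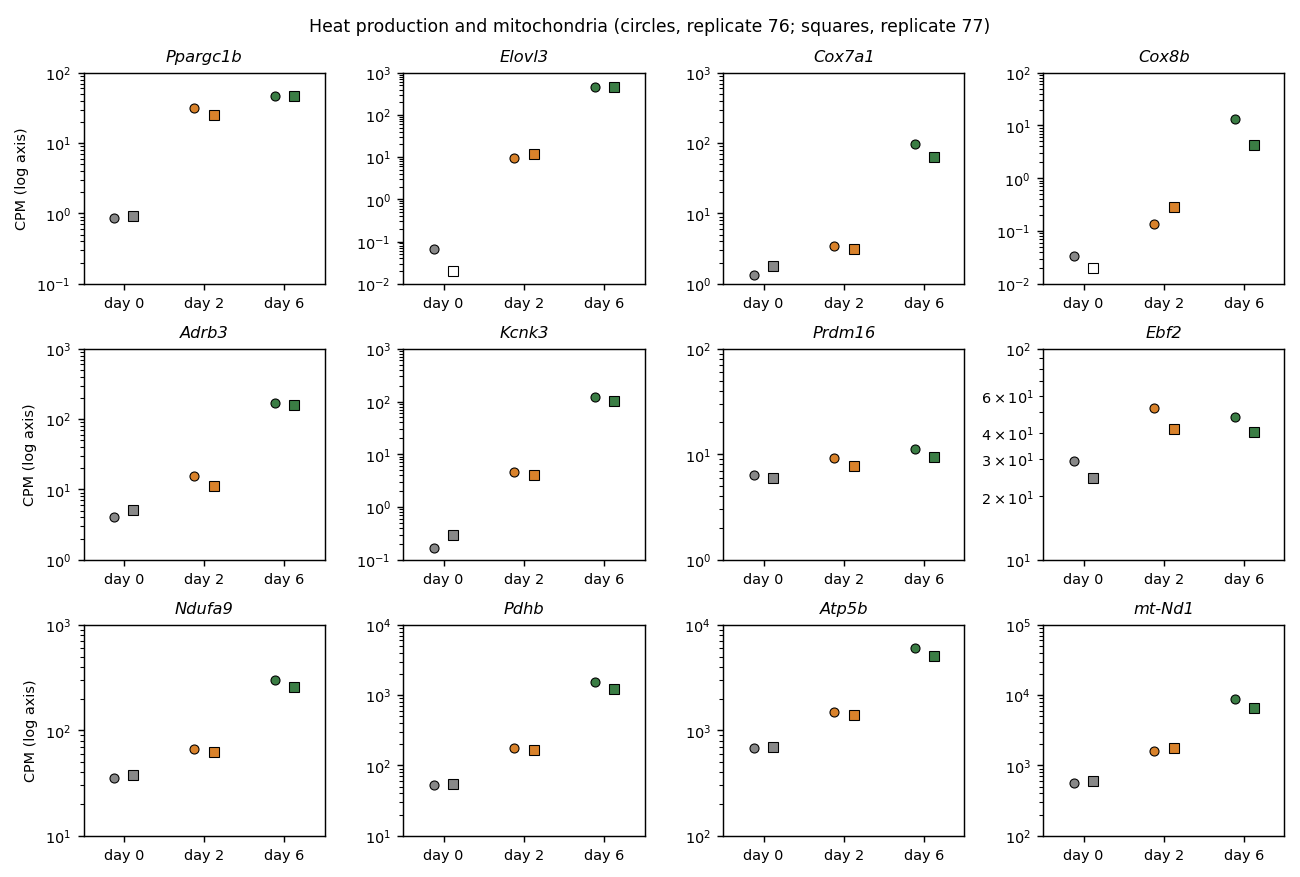
Levels in CPM on log axes at day 0 (grey), day 2 (orange) and day 6 (green) of 12 genes of heat production and of mitochondria, circles for replicate 76 and squares for replicate 77. Elovl3, Cox7a1, Adrb3 and Kcnk3 stood over 10-fold higher at day 6 than at day 2, Ndufa9, Pdhb, Atp5b and mt-Nd1 by smaller folds, and Prdm16 and Ebf2 near their day 2 levels.

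Transcripts of the machinery of respiration rose almost without exception. In complex I, which takes electrons from NADH, 35 of 36 tested nuclear subunits were higher and none lower, with a median of 1.52. In complexes II and III and cytochrome c it was 14 of 14 (median 1.89), in complex IV 15 of 17 (1.66) and in ATP synthase 16 of 17 (1.39). The member of the last that fell was Atpif1, the synthase's inhibitor, from 17.6 and 19.2 to 13.7 and 13.6 CPM. Ndufa9 measured 66.5 and 62.5 CPM at day 2 and 301 and 258 CPM at day 6 (log2 change 2.12 ± 0.09 SE), and Uqcrfs1, the iron-sulphur protein of complex III, 141 and 126 CPM at day 2 and 794 and 673 CPM at day 6. Atp5b, the catalytic subunit of ATP synthase, measured 1504 and 1392 CPM at day 2 and 6011 and 5077 CPM at day 6. All 12 tested protein genes of the mitochondrial genome were higher, with a median of 1.82. mt-Nd1 measured 1620 and 1747 CPM at day 2 and 8780 and 6458 CPM at day 6, and mt-Co1 3916 and 4668 CPM at day 2 and 17383 and 13457 CPM at day 6. Of mt-Co1's 50-base stretches, 51.1% occur in other genes, and of mt-Co3's 99.9%. The counts for complex I, complexes II and III, ATP synthase and the mitochondrial genome were the same under every setting that kept their genes, and with library totals 1 subunit of complex IV was lower.

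The feeding pathways of the respiratory chain rose at the transcript level too. In the citrate cycle and pyruvate entry 28 of 29 tested genes were higher and 1 lower (median 2.01). The list also holds the kinases that close pyruvate dehydrogenase, of which all but Pdk3 rose. Pdk2 rose 8.18-fold, from a mean of 26.1 to 213 CPM. Mpc1, of the mitochondrial pyruvate carrier, measured 6.19 and 6.402 CPM at day 2 and 61.1 and 47.9 CPM at day 6, Pdhb, of pyruvate dehydrogenase, 179 and 164 CPM at day 2 and 1548 and 1205 CPM at day 6, and Pcx, pyruvate carboxylase, 625 and 556 CPM at day 2 and 5087 and 3977 CPM at day 6. Pdk3 was the one that fell, from 19.6 and 22.98 to 15.99 and 16.96 CPM (adjusted p = 0.0115, and 0.0785 without day 2 replicate 77). In fatty acid oxidation 29 of 31 were higher and 1 lower (2.55). Ehhadh, a peroxisomal enzyme, measured 8.91 and 8.34 CPM at day 2 and 374 and 313 CPM at day 6, a 39.8-fold rise, and Acaa1b, a peroxisomal thiolase with 39.6% of its 50-base stretches shared, 1.33 and 1.47 CPM at day 2 and 106 and 110.5 CPM at day 6. In the breakdown of branched-chain amino acids 24 of 26 were higher and 1 lower (1.75). Bcat1, the cytosolic transaminase, fell from 38.6 and 45.2 to 10.2 and 16.7 CPM, while Bckdhb, of the ketoacid dehydrogenase, rose from 31.4 and 28.3 to 197 and 163 CPM. Peroxins, which build peroxisomes, were higher in 14 of 15, and coenzyme Q enzymes in 10 of 12.

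The genes that make and import mitochondrial protein were mostly higher, by smaller folds. Of 58 tested proteins of the mitochondrial ribosome 52 were higher and 1 lower, but with a median of 0.69 and only 7 beyond 2-fold. With library totals as scaling 32 were higher and 5 lower. In protein import 20 of 25 were higher and 2 lower (0.56), or 13 higher and 6 lower with library totals. Grpel1, of the import motor, rose from 90.9 and 83.6 to 281 and 243 CPM. Regulators of mitochondrial number and gene expression were not raised as a group, with 8 of 20 higher and 3 lower, or 5 higher and 10 lower with library totals, where the median of 0.09 became -0.27. Tfam, which packs mitochondrial DNA, measured 38.7 and 40.6 CPM at day 2 and 42.5 and 39.2 CPM at day 6 and did not pass the test. Esrra, the partner of PGC-1 alpha, rose from 90.9 and 77.3 to 222 and 190.1 CPM. Nrf1, a regulator of nuclear mitochondrial genes, fell from 24.6 and 23.99 to 15.99 and 15.4 CPM, and Pprc1, a relative of PGC-1 alpha tied to growth, from 57.5 and 55.8 to 18.4 and 25.5 CPM.

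Cell division receded. Promoters of genes of the G2 phase and mitosis are known to hold a short element called CHR, TTTGAA, together with CCAAT boxes. TTTGAA lay in 26 of 33 promoters of the mitosis list (78.8%), against 14.1% of tested genes with a promoter, and CCAAT in 27 of 33 (81.8%), against 42.7%, on either strand. The 130 bases before the start are shown for 3 genes that hold both close to the start, with TTTGAA and CCAAT in capitals, or TTCAAA and ATTGG where they lie on the other strand.
Cdk1 (chr10:69352913-69353042, minus strand): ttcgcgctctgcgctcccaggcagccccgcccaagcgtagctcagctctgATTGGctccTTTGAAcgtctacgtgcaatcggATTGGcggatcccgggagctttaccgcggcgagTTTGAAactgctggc
Top2a (chr11:99024190-99024319, minus strand): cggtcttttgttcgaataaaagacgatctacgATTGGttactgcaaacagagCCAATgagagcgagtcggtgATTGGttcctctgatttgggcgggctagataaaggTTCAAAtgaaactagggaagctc
Cdc20 (chr4:118437344-118437473, minus strand): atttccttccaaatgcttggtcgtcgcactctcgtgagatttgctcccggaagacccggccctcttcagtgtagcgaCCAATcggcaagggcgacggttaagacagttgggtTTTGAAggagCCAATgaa
In each of the 3 a TTTGAA or its complement lies close to the start, downstream of a CCAAT box.

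All 40 tested genes of G2, mitosis and the spindle were lower at day 6, 39 of them beyond 2-fold, with a median of -3.29. Cdk1, the kinase that starts mitosis, measured 78.1 and 73.99 CPM at day 2 and 9.38 and 11.8 CPM at day 6 (log2 change -2.85 ± 0.11 SE, adjusted p = 4.08e-07). Top2a, the topoisomerase of dividing cells, measured 255.9 and 259 CPM at day 2 and 14.3 and 19.2 CPM at day 6, a 15.4-fold fall to below its day 0 level (70.9 and 74.9 CPM). Cdc20, an activator of the anaphase complex, measured 79.7 and 73.6 CPM at day 2 and 6.48 and 9.03 CPM at day 6. Mki67, the proliferation marker Ki-67, fell 11.7-fold, and the checkpoint kinase Bub1 18.4-fold. All 42 tested genes of DNA replication and S phase were lower as well (median -2.41). Mcm5, of the replicative helicase, measured 104 and 91.4 CPM at day 2 and 6.21 and 9.03 CPM at day 6, Cdc6, which loads it, 23.3 and 21.9 CPM at day 2 and 1.25 and 1.895 CPM at day 6, and Rrm2, of ribonucleotide reductase, 311 and 272 CPM at day 2 and 40.5 and 46.9 CPM at day 6. All 40 and all 42 fell under every setting tried. Genes of the G1 phase divided, with 8 of 19 higher and 8 lower (42.1% each), against 38.2% and 27.5% of all genes tested. Ccne2 fell from 28.9 and 25.97 to 3.13 and 3.44 CPM, and Myc, a driver of growth, from 161 and 142 to 28.01 and 28.1 CPM. Ccnd1, which passes growth signals to the cycle, rose from 5.92 and 5.97 to 43.2 and 62.5 CPM, with 23.4% of its exon bases in exons of other genes. The cell cycle inhibitors Cdkn1a and Cdkn1c rose, Cdkn1a from 286 and 266 to 502 and 476 CPM, and so did Rb1, which holds cells in G1, from 21.5 and 22.9 to 74.97 and 67.6 CPM.

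Genes of growth machinery fell too. All 32 tested genes of ribosome biogenesis were lower, with a median of -1.31. Nop56, which guides RNA methylation, measured 192 and 190.3 CPM at day 2 and 41.1 and 43.5 CPM at day 6, Fbl, the methylase, 190.3 and 173 CPM at day 2 and 47.1 and 51.7 CPM at day 6, and Ncl, nucleolin, 1053 and 997 CPM at day 2 and 325 and 337 CPM at day 6. A list of 76 cytosolic ribosomal proteins, chosen after their values were seen, was lower in all 76, with a median of -1.05 and 21 beyond 2-fold. They summed to 58100 and 54810 CPM at day 2 and 25430 and 27470 CPM at day 6. Rps2 measured 2233 and 1945 CPM at day 2 and 822 and 938 CPM at day 6 and Rpl13a 877 and 835 CPM at day 2 and 318 and 360.2 CPM at day 6. Of 20 aminoacyl-tRNA synthetases 11 were lower and 2 higher, or 17 lower with library totals. Constitutive proteasome subunits gave 13 higher and none lower of 31 with a median of 0.11, but 6 higher and 19 lower with library totals, so their direction rests on the scaling. Of 28 genes of folding in the endoplasmic reticulum and its stress response 18 were lower and 4 higher, or 2 higher with library totals. Hyou1, a chaperone, fell from 279 and 289.7 to 87.5 and 99.6 CPM, while Dnajb9, a co-chaperone, rose from 69.3 and 76.1 to 253 and 248.9 CPM.

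Other metabolic lists held more genes higher than lower, as did all genes tested (38.2% and 27.5%). The shares were 63.3% and 13.3% for cholesterol and 68% and 12% for glycolysis. For antioxidant genes they were 58.8% and 17.6%, and for lysosomal genes 74.2% and 12.9%. Of 30 tested genes of cholesterol synthesis and uptake 19 were higher and 4 lower, or 9 lower with library totals. Among the 4 that fell were Sqle, squalene epoxidase, from 164 and 189 to 111 and 132 CPM, and the regulators Srebf2 and Scap. Insig1, which holds those regulators back, rose from 302 and 309 to 1862 and 1644 CPM, and Cyp51, of the sterol route, from 211 and 251 to 1214 and 978 CPM. Of 25 genes of glycolysis and the pentose phosphate pathway 17 were higher and 3 lower, or 5 lower with library totals and 6 without day 6 replicate 76. G6pdx, which makes NADPH, rose from 228 and 235 to 737 and 639 CPM, and the lactate exporter Slc16a3 fell from 78.7 and 69.7 to 25.6 and 13.1 CPM. Of 34 antioxidant genes 20 were higher and 6 lower, or 11 lower with library totals. Mgst3, a glutathione transferase, measured 50.04 and 40.1 CPM at day 2 and 344 and 272 CPM at day 6. Hmox1, the heme oxygenase, fell from 283 and 289 to 76.1 and 76.96 CPM. Of 31 lysosomal genes 23 were higher and 4 lower, or 7 lower with library totals, with cathepsin D, Ctsd, up from 865 and 913 to 2719 and 2558 CPM and cathepsin L, Ctsl, down from 976 and 1084 to 355 and 409 CPM.

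The stroma divided within each of its lists. Of 25 tested markers of progenitors and stroma 6 were higher (24%) and 7 lower (28%), against 38.2% and 27.5% of all genes tested. Without 1 library the count higher reached 10 (without day 6 replicate 76) and the count lower ranged from 4 (without day 2 replicate 77) to 11 (without day 6 replicate 77). It was 14 with library totals and 11 with RLE scaling, with no filter or without mitochondrial genes. Pi16, a marker of early precursors, measured 18.4 and 22.6 CPM at day 2 and 1.25 and 3.54 CPM at day 6 (log2 change -3.12 ± 0.32 SE), and Cd24a 11.4 and 11.5 CPM at day 2 and 2.23 and 2.04 CPM at day 6. Fmo2, an oxygenase, rose from 10.9 and 17.2 to 137 and 121 CPM. Of 31 mesenchymal genes that oppose adipogenesis 7 were higher and 13 lower, or 11 higher without day 6 replicate 76 and 8 lower without day 2 replicate 77. Snai1 fell from 126 and 134 to 20.9 and 33.6 CPM, while Wisp2 rose from 34.8 and 43.7 to 259 and 323 CPM, against 679 and 637 CPM at day 0.

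Collagens also parted. Of 24 tested, 6 were higher and 7 lower, with 12 higher without day 6 replicate 76 and 11 lower without day 6 replicate 77. Col3a1 fell 5.24-fold. Col1a1, the main chain of collagen I, measured 2744 and 2864 CPM at day 2 and 2458 and 3918 CPM at day 6 and did not pass the test (adjusted p = 0.476), but was higher at day 6 without day 6 replicate 76 (adjusted p = 0.00601). Col4a1, of basement membranes, measured 4563 and 4725 CPM at day 2 and 3571 and 3626 CPM at day 6 (adjusted p = 0.0121, 0.0583 and 0.0826 without day 2 replicate 76 and 77). Col8a1, which had measured 263 and 239.9 CPM at day 0, rose from 1.598 and 1.69 to 18.7 and 20.2 CPM, and Col12a1 from 174 and 255 to 530 and 688 CPM. Among basement membrane genes 6 of 18 were higher and 7 lower, with the largest fall in Nid2, nidogen 2, from 716 and 721 to 120.2 and 157 CPM. Of 38 matrix glycoproteins, proteoglycans and crosslinkers 12 were higher and 14 lower. Vcan measured 1833 and 1905 CPM at day 2 and 120 and 162 CPM at day 6, a 13.3-fold fall. Ctgf, a target of the YAP factors, measured 1.67 and 2.73 CPM at day 2 and 34.7 and 51.6 CPM at day 6, a 19.6-fold rise, and its relative Nov 0.952 and 1.01 CPM at day 2 and 13.9 and 15.8 CPM at day 6. Both had stood higher at day 0, Ctgf at 219.6 and 221 and Nov at 358 and 340.4 CPM. Among metalloproteases and their inhibitors 9 of 19 were higher and 7 lower, with 5 higher without day 2 replicate 76, with library totals or with days 2 and 6 alone. Mmp3 fell from 65.2 and 100.3 to 3.89 and 7.83 CPM and Adamts15 from 433 and 432 to 49.5 and 61 CPM, while the inhibitor Timp3 rose from 5.64 and 6.01 to 35.8 and 49.3 CPM.

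Contractile genes that had been high in the confluent cells rose again, to below their former levels in those named here. Of 22 tested, 15 were higher and 2 lower, with a median of 1.45. The summed level of the list rose little, from 2493 and 2692 CPM at day 2 to 2945 and 3785 CPM at day 6. At day 0 it had been 10910 and 11040 CPM. The count lower was 4 with library totals or without day 6 replicate 77, and 1 without any other of the 4 libraries. Acta2, smooth muscle actin, measured 13.6 and 16.9 CPM at day 2 and 156 and 269.8 CPM at day 6 (log2 change 3.80 ± 0.25 SE, adjusted p = 4.50e-06), against 1449 and 1418 CPM at day 0. Tagln, with 58.3% of its 50-base stretches shared with other genes, measured 20.3 and 23.02 CPM at day 2 and 144 and 224 CPM at day 6, and Myl9, a myosin light chain, 1.87 and 2.698 CPM at day 2 and 21.8 and 32.7 CPM at day 6. Lmod1, leiomodin, rose 18.4-fold. Mylk, the kinase of that light chain, went the other way, from 159.8 and 189.6 to 43.7 and 51.3 CPM. In each of Acta2, Tagln and Myl9 the replicate 77 library of day 6 lay above that of replicate 76, and both lay below the day 0 libraries. Markers of pericytes and smooth muscle (8 genes) summed to 59.97 and 55.8 CPM at day 2 and 224.8 and 217.5 CPM at day 6. Of 7 tested, 4 were higher and 2 lower, with Cspg4 at 0.476 and 0.468 CPM at day 2 and 24.3 and 17.2 CPM at day 6, Mcam at 20.9 and 18.4 CPM at day 2 and 110.3 and 102 CPM at day 6 and with the pericyte channel subunits Abcc9 and Kcnj8 as the 2 lower. Their part in the rise of the contractile genes was not tested.

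Lists of signals between stromal cells held more genes lower than higher. Of 39 tested genes of the TGF-beta and BMP families 15 were lower and 8 higher, or 23 lower without day 6 replicate 77 and 25 with library totals. Gdf10, a ligand that restrains adipogenesis, measured 465 and 515 CPM at day 2 and 27.2 and 44.4 CPM at day 6, a 13.7-fold fall, while Acvr1c, the receptor ALK7 of fat cells, rose from 2.58 and 2.63 to 84.2 and 68.3 CPM. Of 26 Wnt genes 9 were lower and 4 higher, or 7 higher without day 6 replicate 76 and 14 lower either with library totals or with no filter. Wnt4 fell from 6.49 and 7.88 to 0.67 and 1.097 CPM, and Wnt5a rose from 14.2 and 14.8 to 35.2 and 33.2 CPM. Of 14 insulin-like growth factor genes 6 were lower and 5 higher, or 3 higher with library totals. Igfbp4, which binds the growth factors, measured 1236 and 1241 CPM at day 2 and 176 and 191 CPM at day 6, and Pappa2, a protease of such binding proteins, fell from 3.77 and 5.22 to 0.179 and 0.299 CPM. Ghr, the growth hormone receptor, rose from 172 and 171 to 602 and 606 CPM. Of 22 chemokines and cytokines 14 were lower and 3 higher (median -1.32). Next to Cxcl13 and Il33, Cxcl1 fell from 5.13 and 7.302 to 0.447 and 0.848 CPM. The 3 that rose were Cxcl9, which interferon gamma induces (0.51 and 0.611 CPM at day 2 and 2.59 and 4.39 CPM at day 6), Ccl6 (0.544 and 0.54 CPM at day 2 and 3.04 and 2.04 CPM at day 6) and Csf1, the macrophage growth factor (473 and 570.2 CPM at day 2 and 618 and 874 CPM at day 6). The rise of Csf1 was lost with library totals (adjusted p = 0.463) and without day 2 replicate 76 or day 6 replicate 77 (0.182 and 0.103).

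Genes of the interferon response rose without exception among those tested. They are switched on through the interferon-stimulated response element, searched here on both strands as GAAA, 2 bases of any kind and GAAA again. It lay in 12 of 22 promoters of the list (54.5%), against 3.72% of tested genes with a promoter. The 130 bases before the start are shown for 3 genes in which it lies close to the start, in capitals, and which reads as TTTC, 2 bases and TTTC where it is on the other strand.
Ifit1 (chr19:34640759-34640888, plus strand): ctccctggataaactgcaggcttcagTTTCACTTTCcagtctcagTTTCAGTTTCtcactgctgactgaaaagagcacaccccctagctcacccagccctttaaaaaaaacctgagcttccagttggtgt
Isg15 (chr4:156200819-156200948, minus strand): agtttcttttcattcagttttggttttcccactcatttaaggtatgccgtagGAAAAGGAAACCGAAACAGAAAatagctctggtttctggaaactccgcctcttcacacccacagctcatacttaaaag
Gbp2 (chr3:142620533-142620662, plus strand): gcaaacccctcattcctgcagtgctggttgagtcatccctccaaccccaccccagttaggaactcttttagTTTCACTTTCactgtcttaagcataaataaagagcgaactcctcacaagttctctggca
Ifit1 holds 2 matches and Gbp2 1, and in Isg15 3 overlapping matches form a single run.

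All 29 tested genes of the interferon response were higher at day 6, 24 of them beyond 2-fold, with a median of 3.86. Ifit1, which binds viral RNA, measured 0.544 and 2.05 CPM at day 2 and 29.6 and 41.9 CPM at day 6 (log2 change 4.80 ± 0.59 SE, adjusted p = 0.000144). Isg15, a ubiquitin-like modifier, measured 0.442 and 2.37 CPM at day 2 and 14.03 and 31.2 CPM at day 6 (log2 change 4.01 ± 0.76 SE, adjusted p = 0.00175). Gbp2, a GTPase of cell defence, measured 1.598 and 1.98 CPM at day 2 and 26.9 and 34.5 CPM at day 6 (log2 change 4.10 ± 0.20 SE). The factor Irf7 measured 0.782 and 2.63 CPM at day 2 and 21.1 and 36.4 CPM at day 6. Of the 50-base stretches of Ifit3 and Ifit3b, 51.2% and 45.0% occur in other genes, so these close relatives may share counts. The 30 genes of the list summed to 788.5 and 470.5 CPM at day 0, 111.4 and 164.8 CPM at day 2, and 758.7 and 1036 CPM at day 6. Both day 2 libraries lay below every library of day 0 and day 6. All 29 stayed higher at day 6 under every setting tried. Of 12 tested macrophage markers 6 were higher at day 6 too. Their larger sum lay in replicate 76 at days 0, 2 and 6. That of the interferon list lay in replicate 76 at day 0 and in replicate 77 at days 2 and 6. The part of macrophages in the rise was not tested.

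Transcripts for antigen presentation by MHC class I rose as well, with 16 of 17 tested genes higher and none lower and a median of 1.64. B2m, the light chain of every class I molecule, measured 132 and 156 CPM at day 2 and 491 and 609.7 CPM at day 6, and the heavy chain H2-K1 142 and 154 CPM at day 2 and 535 and 554 CPM at day 6. Nlrc5, the coactivator of class I genes, rose from 3.06 and 3.06 to 10.8 and 13.1 CPM. The immunoproteasome subunit Psmb10 measured 10.8 and 12.1 CPM at day 2 and 37.4 and 37.1 CPM at day 6. H2-M3, at 6.36 and 7.95 CPM at day 2 and 8.399 and 8.88 CPM at day 6, was the member that did not pass the test. The list summed to 1057 and 1009 CPM at day 0, 624.5 and 691.8 CPM at day 2 and 1952 and 2244 CPM at day 6, so that day 6 lay above day 0 here.

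**Figure D5:**
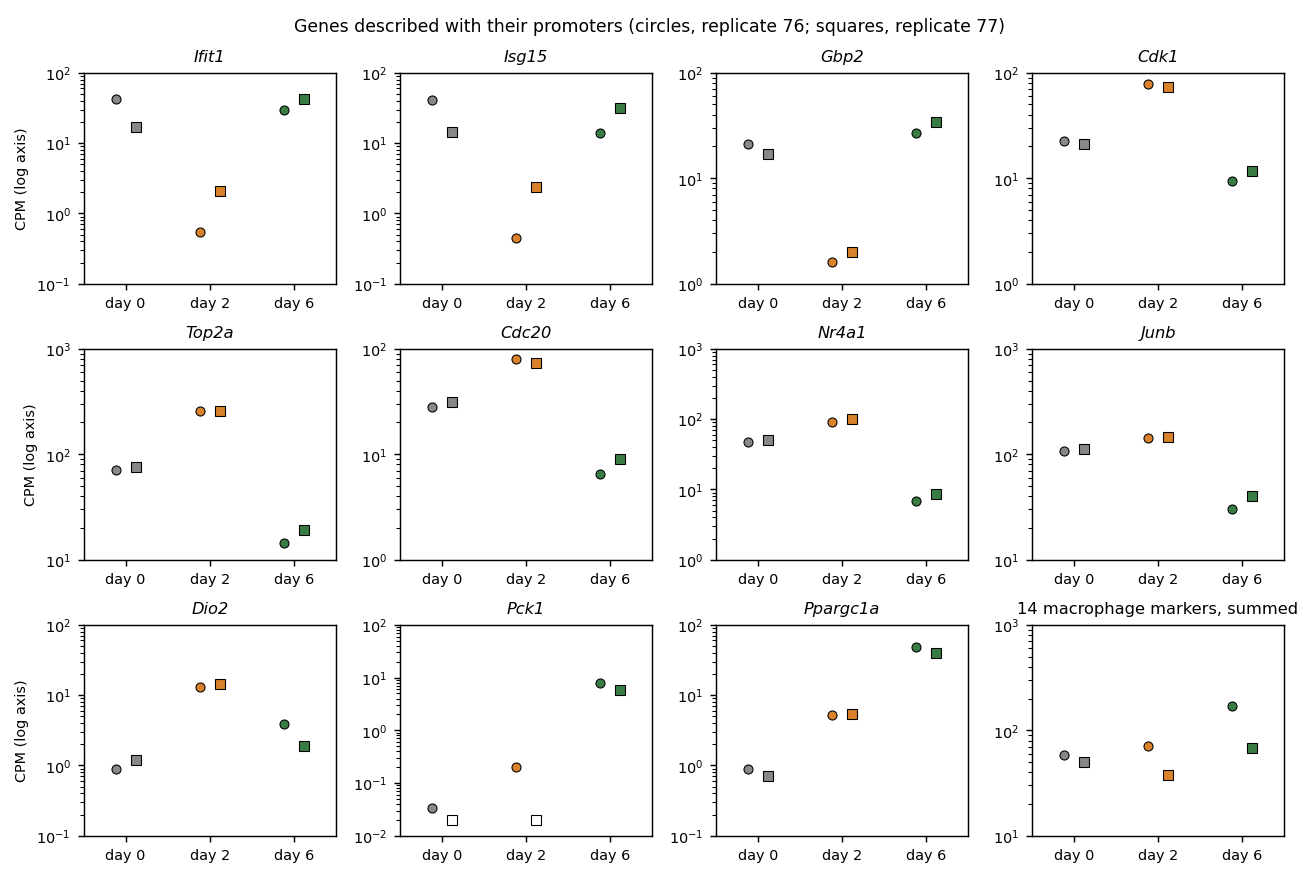
Levels in CPM on log axes at day 0 (grey), day 2 (orange) and day 6 (green) of the 11 genes whose promoters are given, and the sum of 14 macrophage markers, circles for replicate 76 and squares for replicate 77. Open squares at the foot of the Pck1 panel are libraries with 0 counts. Ifit1, Isg15 and Gbp2 are lowest at day 2, Cdk1, Top2a and Cdc20 highest at day 2, and the macrophage sum is highest in the day 6 library of replicate 76.

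Clock and hormone genes gave further changes. Of 22 tested clock genes 14 were higher and 4 lower, or 9 and 5 with library totals. The output factor Dbp measured 5.27 and 4.89 CPM at day 2 and 23.5 and 22.3 CPM at day 6, and Per3 7.65 and 8.31 CPM at day 2 and 25.4 and 26.1 CPM at day 6, both below their day 0 levels at day 2 (42.8 and 38.6 and 42.7 and 43.05 CPM). The sources used here give no hour of harvest, and a difference in the hour cannot be told apart from one between the days. Of 16 tested thyroid hormone genes 11 were higher and 2 lower, or 7 and 4 with library totals. The receptor Thrb measured 7.79 and 9.17 CPM at day 2 and 35.97 and 34.6 CPM at day 6. Rxrg, a partner of nuclear receptors, rose from 1.46 and 1.11 to 16.5 and 13.6 CPM. Among 13 tested subunits of the amino-terminal acetyltransferases 4 were higher and 4 lower, none beyond 2-fold, with a median of 0.13. With library totals 2 were higher and 7 lower and the median was -0.23, and without day 2 replicate 76 the count lower was 2. Naa10 (chrX:73916873-73921944, minus strand), the catalytic subunit that the series' title names, measured 16.1 and 13.7 CPM at day 2 and 13.1 and 11.3 CPM at day 6 (log2 change -0.28 ± 0.13 SE, adjusted p = 0.0922). It did not pass the test, but did so as a fall with RLE scaling (adjusted p = 0.0471), library totals (0.00247), days 2 and 6 alone (0.0367), without mitochondrial genes (0.0253) and without day 6 replicate 76 (0.0475). Its partner Naa15 fell from 121 and 121 to 91.8 and 92.2 CPM (log2 change -0.40 ± 0.06 SE).

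Among markers of other cells, single genes moved. Endothelial markers summed to 7.99 and 8.02 CPM at day 2 and 18.5 and 26.3 CPM at day 6. Of 7 tested, 2 were higher, 1 was lower and 4 were not called. The 2 were Flt1 and Tek, with Flt1 at 0.816 and 1.04 CPM at day 2 and 5.72 and 10.3 CPM at day 6 and Tek at 1.46 and 1.87 CPM at day 2 and 7.68 and 11.5 CPM at day 6, while Pecam1 measured 1.67 and 1.19 CPM at day 2 and 1.47 and 1.05 CPM at day 6 and did not pass the test. Cdh5, a cadherin of endothelial junctions, fell from 2.18 and 1.798 to 1.21 and 1.197 CPM (adjusted p = 0.0336), a call lost by DESeq2 (0.078) and without day 2 replicate 76 (0.159), day 6 replicate 76 (0.0856) or day 6 replicate 77 (0.0788). Of 5 tested Schwann cell markers 2 were higher and none lower. S100b, a calcium-binding protein, rose from 0.272 and 0.252 to 1.12 and 0.948 CPM. Mbp, myelin basic protein, rose from 0.476 and 0.611 to 27.4 and 21.99 CPM, whereas Sox10 (0.714 and 0.18 CPM at day 2 and 0.804 and 0.2 CPM at day 6) did not pass the test. Cpa3, a mast cell protease, had 1 count at day 2 and 38 at day 6, while Kit, the mast cell receptor, fell from 1.02 and 0.683 to 0.223 and 0.249 CPM (adjusted p = 0.00725, and 0.0586 without day 2 replicate 76). Skeletal muscle markers summed to 8.13 and 1.87 CPM at day 2 and 5.54 and 2.59 CPM at day 6, and none of 3 tested passed.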

How the data were processed

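Each of the 6 libraries came as whole-number counts per gene, deposited by the authors in columns whose names speak of RPKM. The values are counts, since they are whole and sum to a different total in each library. Per the submitters' processing notes the tools were TopHat2 2.0.13 and HTSeq 0.9.1 and the builds GRCm38 and mm10. The sources used here name no annotation and no strand setting. The 5 HTSeq summary lines were left out, and 27 gene symbols had been turned into dates.

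Day 6 was compared with day 2 by edgeR 4.0.16 (R 4.3.3), with its quasi-likelihood test, TMM scaling, its filter on low counts, a mean per day over all 6 libraries and Benjamini-Hochberg adjustment. The 2-fold test was glmTreat. The fit was tested on simulated data of 14009 genes, in which 67, 67 and 66 well-counted genes were changed 1.5-, 2- and 4-fold in either direction. Of these 53.7%, 88.1% and 98.5% were recovered, and 4.76% of the genes called had not been changed. Far fewer genes changed there than in the data, so the simulation cannot show how the scaling fares here. Promoters are RefSeq's. Intervals and the floor of 3 counts per library cover counting error only.

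Named genes were the 10 largest rises and falls by fold among called genes of at least 5 CPM whose days did not overlap, the 8 largest in CPM, up to 4 per list and direction, and a fixed set. The genes whose promoters are shown, with Egr1, Kcnk3, Clstn3, Irf7, Ncl, Rps2 and Rpl13a, were named after their values were seen. The members and lists were chosen with earlier results of these data known. Alternatives were RLE scaling, library totals, DESeq2 1.42.0, no filter, days 2 and 6 only, a replicate block, no mitochondrial genes and leaving out each library. Some results are not reported here.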

Additional observations from a re-analysis of the deposited data

How the results depend on the processing

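The count of called genes stayed within 1.5 times of 9501 under every alternative, at 8539 by DESeq2, 9912 without the filter and 8115 to 9489 without 1 library. Without 1 library, 4730 to 5381 genes were higher, 3381 to 4108 lower and 2296 to 3056 beyond 2-fold. With library totals, 3650 were higher and 6182 lower. That setting turned the medians of 6 lists among those whose median exceeded the spread between replicates, glucocorticoid targets to -0.0542, prostaglandin genes to -0.0343, adipogenic factors to -0.0110, the proteasome to -0.253, acetyltransferases to -0.233 and endothelial markers to -0.122. It also turned Herpud1 (-0.0163), Naa20 (-0.0486) and Per1 (-0.0513). Their changes in the main fit were 0.34, 0.31 and 0.31, and the setting moved the median over all genes by -0.36. With days 2 and 6 alone the medians of the proteasome and the acetyltransferases were -0.0253 and -0.0530, and without mitochondrial genes -0.0264 and -0.00448. The endothelial median ranged from -0.449 to 0.212 without 1 library, with -0.0546 without day 2 replicate 77 and the lowest without day 6 replicate 76. Genes with few counts are limited by depth, with a floor of 0.102 to 0.150 CPM in these 4 libraries. Other medians close to 0 changed sign between settings too.

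With the replicate number as a block 9669 genes were called, 5608 higher and 4061 lower, and 2907 beyond 2-fold. The deviations of same-numbered libraries correlated across genes with Pearson's r = 0.213 and Spearman's rho = 0.176, over 2 pairs. With so few pairs this cannot settle whether the numbers pair the libraries. In the main fit they were treated as sharing only a number.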

Other observations

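Some tested genes were read on 1 of the 2 days alone, and those named here were chosen after their values were seen. At day 6, 18 tested genes had 0 counts in both libraries, and at day 2 it was 33. Sptssb, a small subunit of the enzyme that starts sphingolipid synthesis, had 340 counts at day 2 and 0 at day 6, at least 42.4-fold lower against a floor of 3 counts per library. Npy2r, a receptor of neuropeptide Y, had 103 counts at day 2 and 0 at day 6, at least 12.6-fold lower. Nppc, the precursor of C-type natriuretic peptide, had 80 and 0, at least 9.85-fold lower. In the other direction, Ncan, the proteoglycan neurocan, had 0 counts at day 2 and 206 at day 6, at least 45.7-fold higher. Acsm5, an enzyme that activates medium-chain fatty acids, had 0 and 122, at least 27.1-fold higher.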
